A study of Homo sapiens with 2 samples.

Results

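NEAT1, MALAT1 and 5 proteins of the paraspeckle (SFPQ, NONO, PSPC1, HNRNPK and RBM14) were followed in 2 human liver cancer cell lines, SKHEP1 and HepG2. The 7 genes were taken by symbol from the 57820 genes listed for each line, and every one of them had at least 10 expected counts in at least 1 line. RNA from untreated, wild-type cultures, grown in DMEM with fetal bovine serum, had been made into stranded mRNA libraries, 1 library per line. SKHEP1 is labelled as endothelial cells and HepG2 as hepatocellular carcinoma, and the series as a whole concerns PURPL, a long noncoding RNA. The SKHEP1 library held 19940562 counts and the HepG2 library 22477743. With 1 library per line there is no replicate and no test of any difference below. All 95% intervals cover counting error alone and take reads as independent, which PCR copies are not.

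The labelled cell types were set against marker genes. Of 12 endothelial markers, 4 had 10 or more counts in SKHEP1 and 3 in HepG2. KDR, ERG, SOX17, CLDN5 and EMCN stood at 0 in both lines, and the endothelial cadherin CDH5 had 1 count in SKHEP1 and 5 in HepG2. The summed TPM of the endothelial list was 77.7 in SKHEP1, carried mostly by ENG, EGFL7 and ROBO4, and 1.67 in HepG2, so the defining markers of the SKHEP1 label were largely missing. Of 12 hepatocyte markers, 1 reached 10 counts in SKHEP1 and 12 did in HepG2, with summed TPM of 95.6 in SKHEP1 and 54673 in HepG2. Of 10 mesenchymal markers, 9 reached 10 counts in SKHEP1 and 3 in HepG2, of 8 epithelial markers 5 in SKHEP1 and 6 in HepG2, and of 6 blood and immune markers 1 in SKHEP1 and 2 in HepG2. With 1 line of each label, the part of cell type in any difference below cannot be told apart from the line. In bulk RNA, fewer cells that express a gene and less RNA per cell cannot be told apart either.

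Paraspeckles are nuclear bodies built on the long noncoding RNA NEAT1, which is transcribed as a short, polyadenylated transcript and as a long transcript from the same start. The long transcript carries the body, and proteins of the DBHS family (SFPQ, NONO and PSPC1) coat it. The balance of the transcripts is set at the end of the short one, where the CFIm complex of NUDT21 and CPSF6 binds UGUA and promotes cleavage, and where HNRNPK is known to hinder that step. The long transcript and the neighbouring MALAT1, a nuclear speckle RNA, are not polyadenylated in the usual way: RNase P cuts their ends behind an A-rich stretch that folds into a triple helix. Libraries selected on poly(A) therefore need not capture the NEAT1 transcripts and MALAT1 with equal efficiency.

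The ends of 3 transcripts are shown with those of the signals named above that each holds. Those of the long NEAT1 transcript and of MALAT1 are as annotated, while that of the short NEAT1 transcript is not an annotated end. The end of the short NEAT1 transcript (chr11:65426333-65426532, GRCh38, plus strand) spans bases 3536 to 3735 of the long transcript and was placed by its polyadenylation signal. It holds 5 copies of TGTA, the DNA form of the CFIm site, and an AATAAA signal that begins at base 3706. Both motifs are in capitals.
NEAT1 short-transcript end: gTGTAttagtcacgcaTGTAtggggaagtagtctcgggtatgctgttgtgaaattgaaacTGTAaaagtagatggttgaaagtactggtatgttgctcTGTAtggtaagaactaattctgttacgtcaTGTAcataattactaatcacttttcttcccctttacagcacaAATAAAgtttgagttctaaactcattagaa
The end of the long NEAT1 transcript (chr11:65445441-65445540, GRCh38, plus strand) closes the 22743-base transcript and holds neither motif. Its A-rich end is in capitals.
NEAT1 long-transcript end: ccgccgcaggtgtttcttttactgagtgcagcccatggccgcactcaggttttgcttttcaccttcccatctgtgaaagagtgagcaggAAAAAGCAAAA
The last 100 bases of the 8708-base MALAT1 transcript (chr11:65506370-65506469, GRCh38, plus strand) hold 1 TGTA and 1 AATAAA, which overlap and are in capitals. They have no A-rich end like that of NEAT1, so they do not show the RNase P cut described above.
MALAT1 end: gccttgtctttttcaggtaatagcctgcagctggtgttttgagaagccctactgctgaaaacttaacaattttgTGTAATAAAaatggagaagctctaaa
For scale, the last 200 bases of 14252 lincRNA transcripts of GENCODE release 29 held AATAAA in 39.24% and at least 5 copies of TGTA in 0.6596%. The last 100 bases held AATAAA in 35.43% and at least 1 TGTA in 36.52%, all read on the transcript strand. The short NEAT1 window was placed on its AATAAA, and the limits of 5 and 1 TGTA were the counts seen in NEAT1 and MALAT1. These shares therefore do not measure how unusual the ends shown are. A match describes letters and does not show use of the site.

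NEAT1 was the most different of the 2 RNAs and was higher in SKHEP1. The gene (ENSG00000245532.4, a lincRNA on chromosome 11) had 4572 expected counts in SKHEP1, with an exact Poisson interval of 4440 to 4706, against 2034 in HepG2, with 1947 to 2124. Scaled to library size by TMM, NEAT1 stood at 226 CPM in SKHEP1 and 91.7 CPM in HepG2. The counting intervals do not overlap. The SKHEP1 over HepG2 ratio was 2.47 (2.34 to 2.60), or 1.30 on the log2 scale. Of the 15436 genes compared, 40.8% were farther apart between the lines than NEAT1 was, so a gap of this size was common. Among long noncoding RNAs with 10 or more counts NEAT1 ranked 3 of 794 by count in SKHEP1 and 10 of 894 in HepG2, and 11 by TPM in SKHEP1 and 22 in HepG2. It took 4.62% of all their counts in SKHEP1 and 1.74% in HepG2.

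The deposited tables also carry a mean transcript length for each gene, weighted by the estimated share of each listed transcript, and for NEAT1 this length hardly moved. It was 3421 bases in SKHEP1 and 3563 bases in HepG2, against 22743 bases for the long transcript. For such a mean, the long transcript could make up at most 15.04% of the NEAT1 molecules in SKHEP1 and 15.67% in HepG2 as estimated by RSEM. That bounds molecules and not reads, since a long molecule yields more reads, so how the counts divide between the short and the long form is not known. MALAT1 differed more in this respect, with 5335 bases in SKHEP1 and 4117 bases in HepG2. Its 8708-base transcript could make up at most 61.3% of the molecules in SKHEP1 and 47.3% in HepG2.

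MALAT1 was higher in SKHEP1 by less than 2-fold and far less abundant than NEAT1 in both libraries. The gene (ENSG00000251562.3, a lincRNA on chromosome 11) had 742 counts in SKHEP1 (690 to 797) and 501 in HepG2 (458 to 547). The intervals do not overlap, and the ratio was 1.63 (1.45 to 1.82), with 59.6% of the genes farther apart. Per length the gap was smaller: TPM, the share of transcripts after division by length, was 11.3 in SKHEP1 against 8.84 in HepG2, or 1.28-fold higher, because the estimated length of MALAT1 was greater in SKHEP1. MALAT1 ranked 19 among the long noncoding RNAs by count in SKHEP1 and 35 in HepG2, but 118 and 135 by TPM in SKHEP1 and HepG2. NEAT1 exceeded MALAT1 per length 9.81-fold in SKHEP1 and 4.73-fold in HepG2. By count the excess was 6.16-fold in SKHEP1 and 4.06-fold in HepG2. Unequal capture of the RNAs by poly(A) selection can enter all of these ratios.

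**Figure D1:**
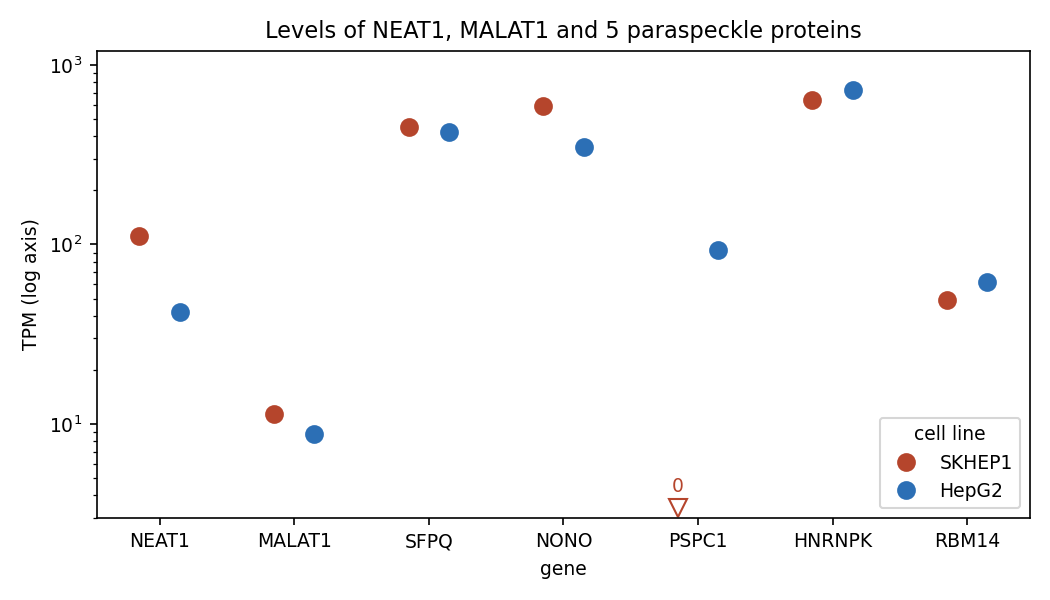
TPM (log axis) of the 7 genes in the SKHEP1 library (red) and the HepG2 library (blue), 1 point per library. PSPC1 is drawn as an open triangle at the axis for its 0 TPM in SKHEP1, and NEAT1 lies above its HepG2 level at 111 against 41.8 TPM.

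The DBHS genes did not go one way: SFPQ was level, NONO was higher in SKHEP1 and PSPC1 had no count there. SFPQ (ENSG00000116560.6, chromosome 1), an RNA- and DNA-binding protein that paraspeckles cannot form without, had 10412 counts in SKHEP1 and 11237 in HepG2. Per length it stood at 452 TPM in SKHEP1 and 424 in HepG2. Its ratio of 1.02 had an interval of 0.990 to 1.04 that includes 1, and 98.3% of the genes were farther apart. With this scaling SFPQ was thus one of the most even genes between the libraries. With deposited TPM or FPKM its ratio was 1.06, above that interval.

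NONO (ENSG00000147140.11, chromosome X), the usual dimer partner of SFPQ and likewise required for paraspeckles, had 16614 counts in SKHEP1 and 11350 in HepG2. Per length that was 593 TPM in SKHEP1 and 348 in HepG2. SKHEP1 was the higher line, with a ratio of 1.61 (1.57 to 1.65), and 60.4% of the genes were farther apart. A processed copy of the gene, NONOP2, had 0 counts in SKHEP1 and 15 in HepG2, so reads given to it change the NONO values little.

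PSPC1 (ENSG00000121390.13, chromosome 13), the DBHS protein by which paraspeckles were first recognised and which they can form without, had 0 counts in SKHEP1 and 2728 in HepG2 (2627 to 2832). The upper Poisson limit of the 0 in SKHEP1 is 3.69 counts. Per length PSPC1 stood at 0 TPM in SKHEP1 and 92.8 in HepG2, where it was more abundant than NEAT1 itself. Against a floor of 3 counts per library, PSPC1 was at least 829-fold lower in SKHEP1, which bounds the observed ratio only; the exact counting limit is 673-fold, and the bound was 481-fold with deposited TPM. Only 0.991% of the genes were farther apart. Of 4639 genes with at least 1000 counts in HepG2, 97 (2.09%) stood at 0 in SKHEP1, and in the other direction 80 of 4244 (1.89%) did. The pseudogenes PSPC1P1 and PSPC1P2 had 0 counts in both lines, so no PSPC1 reads were listed under those copies.

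Together the DBHS genes summed to 1044 TPM in SKHEP1 and 866 in HepG2. NONO made up 56.8% of that sum in SKHEP1 and 40.2% in HepG2, SFPQ 43.2% in SKHEP1 and 49.0% in HepG2, and PSPC1 0% in SKHEP1 and 10.7% in HepG2. By TPM, NONO was the leading DBHS transcript in SKHEP1 and SFPQ in HepG2, where NONO led by count and per length of the longest transcript, with SFPQ over NONO ratios of 0.762 in SKHEP1 and 1.22 in HepG2. Set against NEAT1, SFPQ was 4.06 times as abundant per length in SKHEP1 and 10.2 times in HepG2. For NONO the same ratio to NEAT1 was 5.33 in SKHEP1 and 8.33 in HepG2. These are levels of mRNA, and protein was not measured.

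The remaining proteins, HNRNPK and RBM14, were somewhat lower in SKHEP1. HNRNPK (ENSG00000165119.14, chromosome 9), the RNA-binding protein that hinders cleavage at the end of the short NEAT1 transcript, had 16914 counts in SKHEP1 and 21591 in HepG2. Per length it was the most abundant of the 7 genes in both lines, at 641 TPM in SKHEP1 and 723 in HepG2. It was 1.16-fold lower in SKHEP1 (1.14 to 1.19), and 85.2% of the genes were farther apart. HNRNPK was 5.76 times as abundant as NEAT1 per length in SKHEP1 and 17.3 times in HepG2. Its processed copies HNRNPKP1 to HNRNPKP5 had no more than 7 counts each in either line.

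RBM14 (ENSG00000239306.4, chromosome 11), a coactivator with a prion-like domain that paraspeckles need, had 1395 counts in SKHEP1 and 1950 in HepG2. Per length it stood at 48.9 TPM in SKHEP1 and 61.6 in HepG2. It was 1.27-fold lower in SKHEP1 (1.19 to 1.37), with 77.4% of the genes farther apart. It shares exons with the read-through gene RBM14-RBM4, which had 19.1 counts in SKHEP1 and 25.1 in HepG2, so reads may be split between them. Its counts are not whole, as those of NONO are not. The adjoining RBM4, a splicing regulator, was 1.19-fold lower in SKHEP1, at 1703 counts against 2219 in HepG2.

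Counted together, 1 of the 7 genes, NEAT1, was at least 2-fold higher in SKHEP1, where 25.0% of all genes compared were. Likewise 1 of 7, PSPC1, was at least 2-fold lower, where 23.4% of all genes were. The other 5 lay within 2-fold, and both counts are near the background shares for so few genes. The median log2 ratio of all genes compared was 0.03, so the scaling left little shift. In order of TPM the genes ran HNRNPK, NONO, SFPQ, NEAT1, RBM14, MALAT1 and PSPC1 in SKHEP1, and HNRNPK, SFPQ, NONO, PSPC1, RBM14, NEAT1 and MALAT1 in HepG2. Whether neighbours in these orders differ beyond the spread between cultures cannot be said from 1 library per line. The 5 proteins summed to 1734 TPM in SKHEP1 and 1650 in HepG2.

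**Figure D2:**
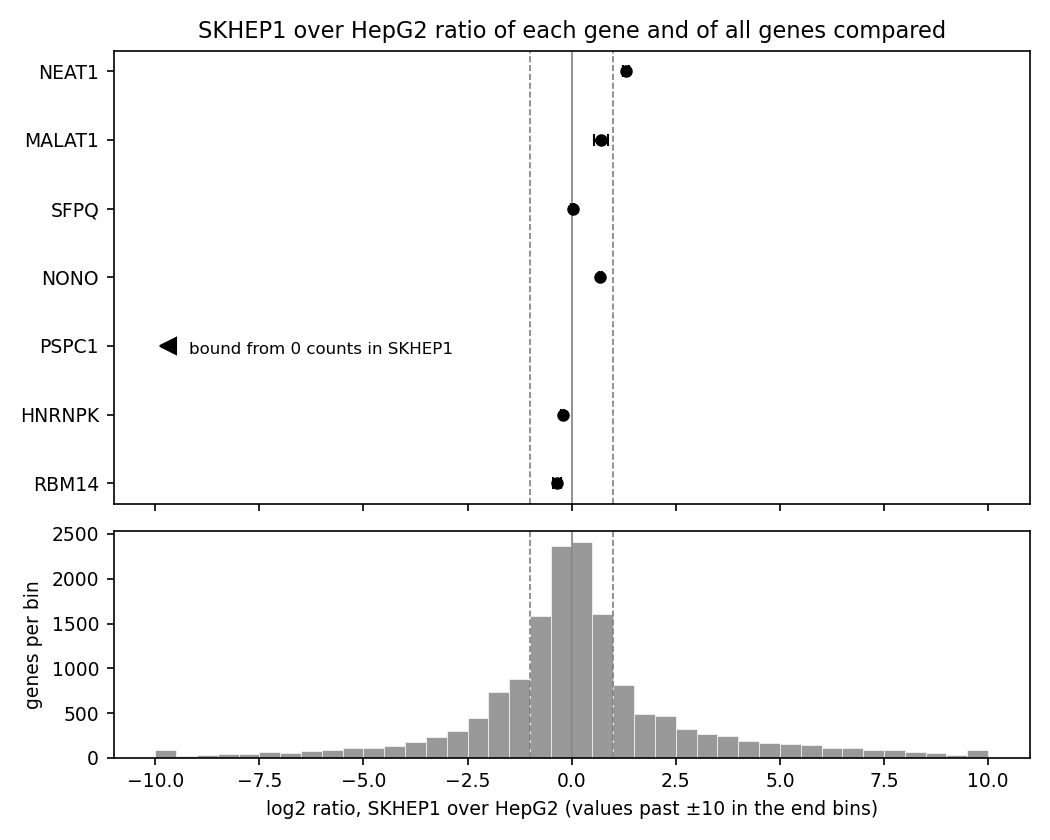
Upper panel, log2 ratio of SKHEP1 over HepG2 for each gene with its 95% counting interval; the arrowhead marks the bound for PSPC1, which lies at -9.69, and dashed lines mark 2-fold. Lower panel, the same ratio for all 15436 genes compared, as genes per bin: NEAT1 at 1.30 sits in the shoulder of the distribution and PSPC1 in its far tail.

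The genes on either side of PSPC1 on chromosome 13 shared its pattern. Within 10 protein-coding genes on each side in RefSeq order lie 13 neighbours, since PSPC1 is near the first protein-coding genes of the chromosome. These neighbours were examined after the 0 for PSPC1 had been seen. Of the 13, 12 had 0 counts in SKHEP1, and 8 of those had 10 or more in HepG2. The share of all genes that meet this rule, used below for the other members too, was not counted. By a nearby rule, 464 of 10510 protein-coding genes with at least 50 counts in HepG2 had under 3 in SKHEP1. The chromatin protein gene MPHOSPH8, a reader of methylated histone, had 0 counts in SKHEP1, against 1069 in HepG2. Against the floor of 3 counts it was at least 325-fold lower, with an exact counting limit of 264-fold. XPO4, a nuclear exportin, had none in SKHEP1, against 2293 in HepG2. Against the same floor XPO4 was at least 696-fold lower, with an exact counting limit of 566-fold. ZMYM2, a zinc finger corepressor subunit, had 0 counts in SKHEP1 and 1242 in HepG2. CRYL1, a sugar dehydrogenase, had 0 in SKHEP1 and 816 in HepG2, and IFT88, needed for cilia, 0 in SKHEP1 and 388 in HepG2. ZMYM5, N6AMT2 and the cytokine gene IL17D had 0 in SKHEP1 and 116, 175 and 27 in HepG2.

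Other neighbours were near 0 in both lines and carry no information on a difference: TUBA3C, TPTE2 and the connexin GJB6 had 0 counts in both lines, GJA3 had 0 in SKHEP1 and 1 in HepG2, and GJB2 had 1 in SKHEP1 and 2 in HepG2. Beyond XPO4 the counts returned in SKHEP1. The Hippo kinase gene LATS2 had 355 counts in SKHEP1 and 841 in HepG2. SAP18, a subunit of histone deacetylase complexes, had 1429 in SKHEP1 and 2070 in HepG2, and the kinetochore gene SKA3 had 821 in SKHEP1 and 520 in HepG2. The genes with counts in HepG2 and none in SKHEP1 therefore lay together, from MPHOSPH8 to XPO4. No other of the 7 genes had such surroundings: among its 20 nearest neighbours NONO had 1 gene at 0 in SKHEP1 with 10 or more counts in HepG2, the connexin GJB1, and NEAT1, MALAT1, SFPQ, HNRNPK and RBM14 had none. PSPC1 and MPHOSPH8 adjoin, and it is not stated whether the counting used strand, so reads at their shared end could be split between them. DNA was not measured in these files.

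**Figure D3:**
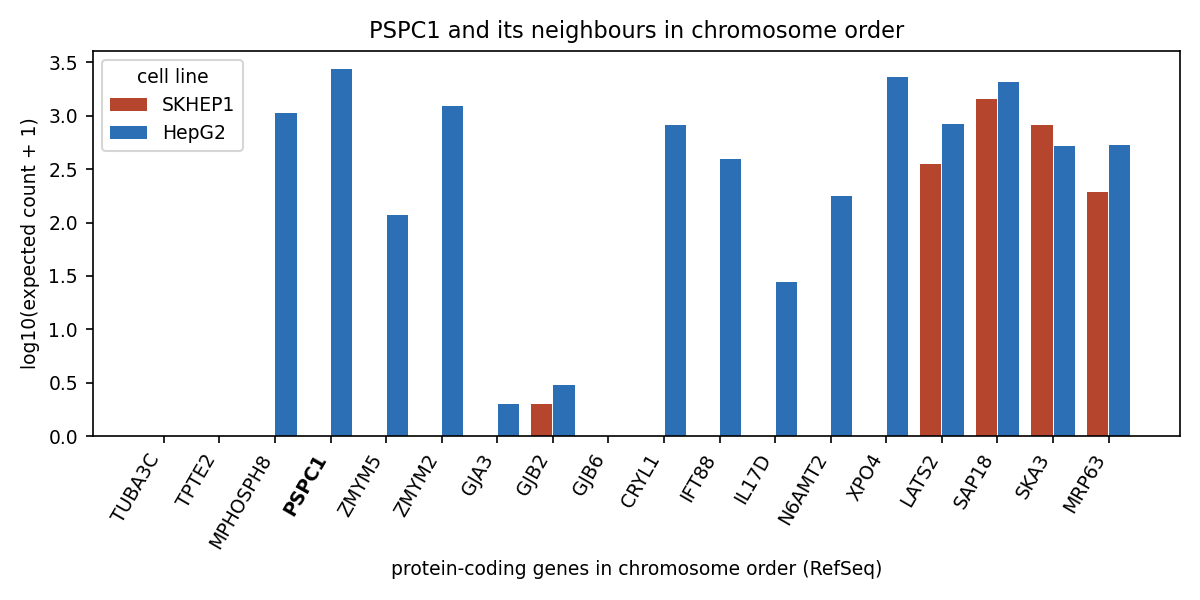
Expected counts, as log10(count + 1), of PSPC1 (bold) and the protein-coding genes around it in chromosome order, with SKHEP1 bars left of HepG2 bars. From MPHOSPH8 to XPO4 every gene but GJB6 has a bar for HepG2, and none but GJB2, with 1 count, has a bar for SKHEP1; from LATS2 onwards both lines have bars.

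The promoters of PSPC1 and NONO are shown because these DBHS genes lay farthest apart in opposite directions. Both are from RefSeq on GRCh38.p14, from 250 bases before the start to 50 after it, written on the strand of the gene. The PSPC1 promoter (chr13:19782896-19783195, minus strand) has 1 YY1 motif (GCCATNTT), in capitals.
PSPC1: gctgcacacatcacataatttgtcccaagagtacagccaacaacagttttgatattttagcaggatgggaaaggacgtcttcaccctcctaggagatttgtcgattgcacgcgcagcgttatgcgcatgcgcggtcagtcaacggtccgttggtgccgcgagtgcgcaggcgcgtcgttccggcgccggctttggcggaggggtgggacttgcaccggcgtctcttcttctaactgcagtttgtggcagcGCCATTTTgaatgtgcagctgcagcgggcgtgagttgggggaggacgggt
The NONO promoter (chrX:71283385-71283684, plus strand) has 1 YY1 motif and 3 CCAAT boxes (CCAAT, or ATTGG on the other strand), in capitals.
NONO: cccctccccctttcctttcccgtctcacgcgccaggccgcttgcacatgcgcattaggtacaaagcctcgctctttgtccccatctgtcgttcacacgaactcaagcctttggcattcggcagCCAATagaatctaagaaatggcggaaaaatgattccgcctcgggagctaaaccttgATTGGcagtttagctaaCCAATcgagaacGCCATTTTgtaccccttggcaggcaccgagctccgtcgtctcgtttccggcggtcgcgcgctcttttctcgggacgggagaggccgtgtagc
Searched on both strands, the YY1 motif occurred in 6.578% of 35116 RefSeq promoters of this length, CCAAT in 34.61% and the TATA box TATAAA in 11.53%. Promoters were matched for 5 of the 7 genes, NEAT1 and SFPQ being the others. The RBM14 promoter held 3 CCAAT boxes, 1 of the HNRNPK promoters 2, and 1 of the MALAT1 promoters a TATAAA. These matches describe letters and nothing about binding.

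Genes known to act on NEAT1 or with it were examined as lists. Of 33 other paraspeckle proteins compared, 2 were higher in SKHEP1 by at least 2-fold and 4 at least 2-fold lower, beside 25.0% and 23.4% of all genes, with a median log2 ratio of -0.04 beside 0.03 for all genes. SMARCA4, the ATPase of the SWI/SNF remodeller and a paraspeckle component needed for assembly, had 292 counts in SKHEP1 and 4113 in HepG2, 12.8-fold lower (11.4 to 14.5). RUNX3, a transcription factor, had 124 in SKHEP1 and 6 in HepG2, 22.7-fold higher (10.1 to 63.0). SS18L1, a subunit of the neuronal form of SWI/SNF, was 2.83-fold lower, WTAP of the m6A writer complex 2.26-fold lower and ZNF24 2.03-fold lower, while ZC3H6 was 3.33-fold higher at 97 counts in SKHEP1 and 32 in HepG2. HNRNPA1, the most abundant of the list, had 2020 TPM in SKHEP1 and 2475 in HepG2.

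The machinery that cuts and polyadenylates transcripts was even in the middle and had a few genes apart. Of 32 genes of cleavage, polyadenylation and RNase P, 2 were higher in SKHEP1 by at least 2-fold and 2 lower, beside 25.0% higher and 23.4% lower over all genes, with a median log2 ratio of -0.01. The mean was 0.24, on the other side of 0 and pulled up by RPP25. NUDT21, which with CPSF6 forms CFIm and reads UGUA, had 4428 counts in SKHEP1 and 7018 in HepG2, 1.44-fold lower. Its partner CPSF6 was level, at 2612 counts in SKHEP1 and 2921 in HepG2, 1.02-fold lower with an interval of 0.966 to 1.07 that includes 1. CSTF1 was 2.14-fold lower and the nuclear poly(A)-binding protein gene PABPN1 2.06-fold lower, with 2043 counts in SKHEP1 and 4613 in HepG2. CSTF2T, a copy of the CstF subunit that binds downstream of the poly(A) signal, was 3.03-fold higher at 1034 counts in SKHEP1 and 374 in HepG2. RPP25, a protein subunit of RNase P and MRP, had 683 counts in SKHEP1 against 1 in HepG2. The ratio of these counts, taken without the floor, was 750 (134 to 29650). Other RNase P subunits were within 2-fold, such as RPP30 at 908 counts in SKHEP1 and 684 in HepG2.

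Nuclear speckle proteins, which surround MALAT1 in the nucleus, lay close together between the lines. None of 32 was at least 2-fold apart in either direction, beside 25.0% of all genes higher and 23.4% lower, and the median was 0.00 (mean -0.08). PNN and SRSF6 were lowest in SKHEP1 relative to HepG2, by 1.87-fold and 1.79-fold, followed by RNPS1 at 1.77-fold. SART1, a splicing factor of the tri-snRNP, was 1.67-fold higher in SKHEP1. SRSF1, which MALAT1 is known to bind, had 316 TPM in SKHEP1 and 322 in HepG2.

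The hnRNP and PCBP family, to which HNRNPK belongs, leaned lower in SKHEP1. Of 27 genes compared, 20 had a ratio below 1, beside 49.0% of all genes, and 7 above it, with a median of -0.25. At 2-fold, 1 was higher and 1 lower, beside 25.0% and 23.4% of all genes. RALY had 2293 counts in SKHEP1 and 6971 in HepG2, 2.77-fold lower (2.64 to 2.91). PTBP2, the neuronal paralogue of PTBP1, was 2.13-fold higher, at 422 counts in SKHEP1 and 217 in HepG2. PCBP1, which like HNRNPK binds C-rich RNA through KH domains, was 1.78-fold lower, and HNRNPLL likewise 1.78-fold lower. HNRNPA2B1 was level at 1483 TPM in SKHEP1 and 1485 in HepG2. HNRNPK at 1.16-fold lower lay within the range of its family.

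**Figure D4:**
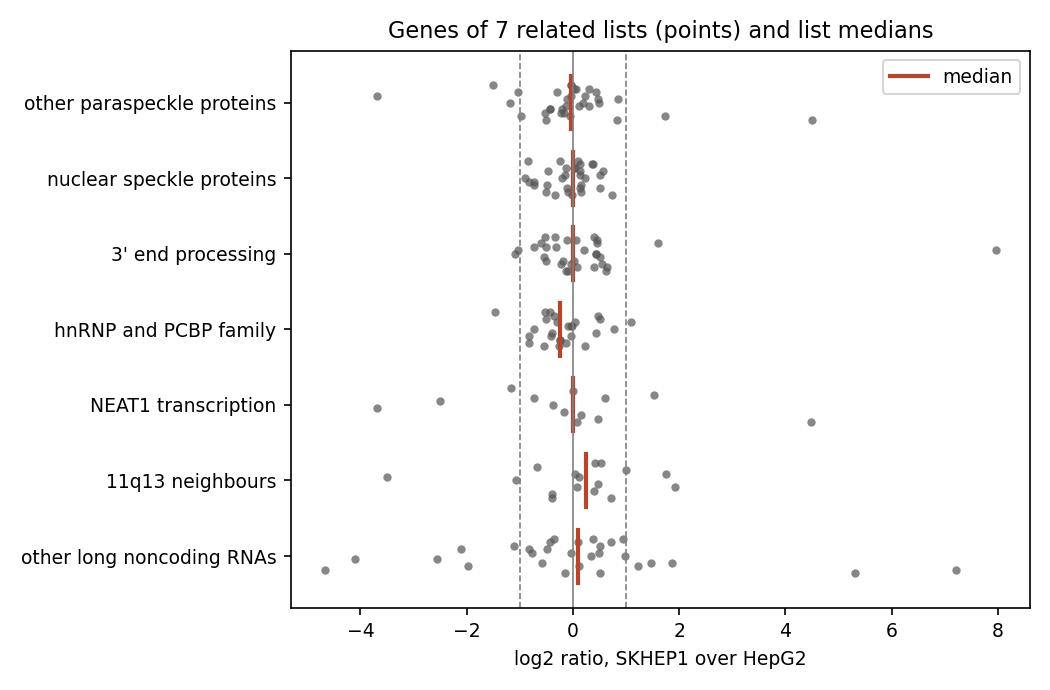
Log2 ratio of SKHEP1 over HepG2 for the genes of 7 lists, 1 point per gene compared, with the list median in red and 2-fold as dashed lines. The medians lie between -0.25 for the hnRNP and PCBP family and 0.26 for the neighbours of NEAT1 and MALAT1, and all 32 nuclear speckle genes lie inside 2-fold.

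NEAT1 and MALAT1 lie side by side on chromosome 11, and the genes around them did not follow 1 direction. The list ran from POLA2 to KAT5, farther beyond MALAT1 than beyond NEAT1, and was not set by the rule used around PSPC1. It left out CAPN1, next to POLA2 and 1.69-fold higher, and SYVN1, 1.79-fold lower. Of 16 neighbours compared, 11 had a ratio above 1 and 5 below it, beside 51.0% and 49.0% of all genes. The median was 0.26. At 2-fold, 2 were higher and 2 lower, beside 25.0% and 23.4% of all genes. The median was 0.48 with deposited TPM, and the mean of the ratios was 0.09. The genes next to NEAT1 on its other side were nearly level: SLC25A45 had 50 counts in SKHEP1 and 52 in HepG2, and FRMD8 668 in SKHEP1 and 679 in HepG2, 1.08-fold higher (0.969 to 1.20). Farther out, EHBP1L1 was 3.79-fold higher, with 1862 counts in SKHEP1 and 539 in HepG2, and SIPA1, a Rap GTPase activator, 3.38-fold higher, with 600 in SKHEP1 and 195 in HepG2. TIGD3 was 11.3-fold lower on 7 counts in SKHEP1 and 87 in HepG2, and the kinase gene MAP3K11 was 2.11-fold lower. POLA2, a subunit of DNA polymerase alpha, was 1.99-fold higher, and RELA, the NF-kB subunit p65, 1.40-fold higher.

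Transcription factors known to act on NEAT1 were mixed. Of 13 compared, 2 were higher in SKHEP1 by at least 2-fold and 3 at least 2-fold lower, near the 25.0% and 23.4% of all genes, with a median of 0.01 that lay on the other side of 0 as a mean (-0.10) and with deposited TPM (-0.11). EPAS1, the hypoxia factor HIF-2 alpha that induces NEAT1, had 1082 counts in SKHEP1 and 6745 in HepG2, 5.68-fold lower (5.33 to 6.06). HIF1A was nearly level, at 187 TPM in SKHEP1 and 157 in HepG2. RUNX1 was 2.88-fold higher, at 1414 counts in SKHEP1 and 539 in HepG2, and E2F1 2.25-fold lower. SMARCA4 stands in this list as well as among the paraspeckle proteins.

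Across all genes compared, those nearest to NEAT1 in TPM in both lines were VPS28, a subunit of the ESCRT-I sorting complex, with 113 TPM in SKHEP1 and 41.9 in HepG2, MBOAT7, a lysophospholipid acyltransferase, with 112 in SKHEP1 and 40.8 in HepG2, and the GTPase RRAS2 with 109 in SKHEP1 and 42.6 in HepG2. Nearness was the Euclidean distance of log2(TPM + 1) over the 2 lines, at 0.0203 for VPS28. Nearest to MALAT1 were DMXL1 with 11.4 TPM in SKHEP1 and 8.93 in HepG2, the kinase MAP2K5 and the cell cycle gene LIN9. SFPQ was closest to CHCHD2, NONO to MORF4L2, HNRNPK to FAU and RBM14 to SMG5. PSPC1 was closest to CPN2, a liver-secreted carboxypeptidase N subunit that had 0 TPM in SKHEP1 and 91.7 in HepG2. With 2 libraries, likeness in level carries no information on shared control.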

How the data were processed

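RNA-seq gene tables of SKHEP1 and HepG2, 1 library each, were grouped by the cell line label. Per the labels' protocols, libraries were stranded mRNA preparations. The submitters' processing notes name hg19 as the build and cutadapt, STAR, RSEM and DESeq2 as software; their versions, the annotation and the use of strand were not given in the sources used here. Per the file headers, the deposited tables hold RSEM expected counts, which can be fractional. The deposited TPM and FPKM values are scaled by effective length, and gene lengths are weighted by isoform, per the file headers.

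Expected counts were rounded and scaled to CPM of the TMM effective library size (edgeR 4.0.16, R 4.3.3; factors 1.01 for SKHEP1 and 0.987 for HepG2). Genes with at least 10 expected counts in either library were compared (15436 genes). For log2 ratios, calls, medians, means and shares of genes farther apart, counts under 3 were set to a floor of 3 per library. Printed folds and ratios used the counts as they stood, with the floor only where a library was at 0. Intervals at 95% were exact Poisson for counts and conditional Clopper-Pearson for ratios. The calculation was checked on simulated counts. No difference was tested, since no line has a replicate.

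Gene types came from GENCODE release 29, and gene order, matched for 18882 of 19976 genes (94.5%), and promoters from RefSeq (GRCh38.p14). Levels of different genes were compared as TPM; ranks by count among long noncoding RNAs are not corrected for length. The members and lists were chosen with earlier results of these data known. Named from each list were up to 4 genes of largest ratio whose higher library held at least 100 counts, and up to 2 with the highest TPM, plus the neighbours on chromosome 11 and, for each of the 7 genes, the nearest genes by TPM. ZNF24, ZC3H6, CPSF6, RPP30, RBM4, the neighbours of PSPC1 and NONO and the genes in the closing observations outside this rule were named after their values were seen. Some genes that the rule takes are not reported here. The alternatives were total counts, DESeq2 1.42.0 or upper-quartile scaling, deposited TPM or FPKM, HepG2 thinned to the SKHEP1 depth, unrounded counts, fold limits of 1.5 and 4, count minimums of 50 and 1, and means for medians. Software was matplotlib 3.10.9, scipy 1.17.1, pandas 2.3.3 and numpy 2.4.6 under Python 3.11.15.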

Additional observations from a re-analysis of the deposited data

How the results depend on the processing

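No ratio of the 7 genes changed direction under any alternative run. The SKHEP1 over HepG2 ratios moved past their counting intervals with deposited TPM (NEAT1 2.66, MALAT1 1.28, SFPQ 1.06, NONO 1.70, HNRNPK 0.886), with deposited FPKM (NEAT1 2.64, MALAT1 1.27, SFPQ 1.06, NONO 1.69, HNRNPK 0.880) and with total counts (SFPQ 1.04, NONO 1.65, HNRNPK 0.883). The PSPC1 bound was 481-fold with TPM and 484-fold with FPKM. Of the 7 genes, 3 were at least 1.5-fold higher in SKHEP1 (background 33.3%) and 0 at least 4-fold higher (16.5%). At 4-fold, 2549 of all genes were higher and 2002 lower in SKHEP1. Over the 170 genes compared from the lists, 14 were higher and 17 lower at 2-fold (all genes 25.0% and 23.4%), 26 and 32 at 1.5-fold (33.3% and 31.5%), and 5 and 7 at 4-fold (16.5% higher, and 2002 of 15436 genes lower). Of the main values under alternatives, 92 stayed within their limits and 23 moved. The limits were the counting interval for ratios and 1.5-fold of the main value for counts. The latter is wide: an order with 5 of 7 genes in place passed it. The median of the neighbours on chromosome 11 was 0.48 with TPM and 0.47 with FPKM. Of the alternatives chosen after seeing the data, 5 genes on each side of PSPC1 left 3 neighbours at 0 in SKHEP1 with 10 or more counts in HepG2, against 8. With FPKM all 7 genes kept their place in the order of levels. That outcome was fixed in advance, since FPKM and TPM are proportional within a library, although it counts among the 92. With counts per length of the longest transcript 5 genes kept their place in each line. By that measure RBM14 passed NEAT1 in SKHEP1 and NONO passed SFPQ in HepG2. No paired analysis was possible because each line has 1 library. Depth gives no limit for the 7 genes other than the 0 of PSPC1, while the missing replicates leave the spread between cultures unknown.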

Other observations

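The run of genes around PSPC1 was set against the whole genome. Among 10510 protein-coding genes with at least 50 counts in HepG2, 464 had under 3 counts in SKHEP1. They fell into 383 runs of genes that follow each other among those 10510. The run from MPHOSPH8 to XPO4, with 8 such genes and a summed SKHEP1 count of 0, was the second longest. Genes under 50 counts in HepG2 were passed over whatever their SKHEP1 counts, as GJA3, GJB2, GJB6 and IL17D were in this run. The longest, of 16 genes, was a cluster of genes of the zinc finger family on chromosome 19, from ZNF528 to ZNF813. Next came 6 genes on chromosome 4, from UGT2B10 to ODAM, most of them enzymes that conjugate glucuronic acid in liver. In the other direction the longest run was 6 genes of the HOXB cluster on chromosome 17. With at least 200 counts required, the PSPC1 run held 6 genes and the longest 8. Runs that join unlike genes, as around PSPC1, and runs of a gene family were not told apart by any test.

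Other long noncoding RNAs were higher in SKHEP1 about as often as lower with the main scaling. With deposited TPM or FPKM, 6 were at least 2-fold higher and 9 at least 2-fold lower. Of 29 compared with the main scaling, 5 were higher in SKHEP1 by at least 2-fold and 6 at least 2-fold lower. These counts are near the 25.0% and 23.4% of all genes, and the median log2 ratio was 0.09. SNHG15 had 405 counts in SKHEP1 against 0 in HepG2, and CRNDE had 109 in SKHEP1 against 0 in HepG2. Against the floor of 3 counts SNHG15 was at least 148-fold higher and CRNDE at least 39.9-fold higher, which bounds the observed ratios only. Exact counting limits, as given for PSPC1, would lie lower. KCNQ1OT1, the imprinted antisense RNA of KCNQ1, had 28 counts in SKHEP1 and 525 in HepG2, 17.1-fold lower (11.7 to 26.0), and is uncertain because it overlaps its host gene. SNHG5 had 342 in SKHEP1 and 2211 in HepG2, 5.89-fold lower. GAS5, a host gene of small nucleolar RNAs, had 2543 in SKHEP1 and 1412 in HepG2, 1.98-fold higher. NORAD, listed as LINC00657, had 9318 counts in SKHEP1 and 11325 in HepG2, or 142 TPM in SKHEP1 and 152 in HepG2, above NEAT1 in both lines.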
